A study of Mus musculus with 77 samples.

Results

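The 7 beta tubulin genes of the mouse listed by name, Tubb2a, Tubb2b, Tubb3, Tubb4a, Tubb4b, Tubb5 and Tubb6, were examined across line, RNA fraction and time in RiboTag testes. A gene was represented by the probe set listed with that gene alone, and by the one with the highest mean where there were several. By this rule 6 of the 7 were measured, among 19938 genes in all. Tubb4b had 0 probe sets of its own, its 2 being shared with another gene, Zfp646, so it has no value here. The members are a gene family and were not picked by their signal, although the higher level of Tubb3 in Sertoli cell RNA was known when they were listed.

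RNA was measured on 77 arrays from neonatal testes of mice with the RiboTag allele, in which Cre adds an epitope tag to a ribosomal protein. All animals, controls included, received the retinoic acid synthesis inhibitor BDAD over 9 days, and were killed at its end (time 0) or given retinoic acid (RA) by injection and taken at 4h, 12h, 24h, 48h, 4d, 6d or 8d. Total RNA came from the whole testis and IP RNA was the RNA associated with polysomes, pulled down with the tag, in Stra8-Cre:RiboTag mice of strain FVB/N (16 IP and 23 total arrays), Amh-Cre:RiboTag mice of strain FVB/N (16 IP and 14 total arrays) and Ngn3-Cre:RiboTag mice of strain C57BL/6 (4 IP and 4 total arrays, at 0 and 4h only). The Stra8 and Ngn3 promoters drive Cre in germ cells, and the Amh promoter drives it in Sertoli cells, the somatic cells that nurse the germ cells. Line and strain cannot be told apart for Ngn3, ages in days are not given in the labels, and no group that received BDAD and no RA was kept to the later times, so RA, recovery from BDAD and age cannot be told apart along a course. The 4h time of Amh total RNA was not analysed here.

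Microtubules are polymers of alpha and beta tubulin dimers, and mammals carry several genes for each. The beta tubulins are nearly identical along most of the protein and differ mainly in the tail that faces away from the microtubule wall, which enzymes modify and motors read. Tubb5 is the broadly expressed isotype of dividing cells, Tubb3 is best known from neurons, Tubb4a from brain, Tubb2a and Tubb2b from neurons among other tissues, and Tubb6 is a divergent isotype that is low in brain. In the testis, microtubules form the spindles of dividing germ cells and the long tracks of Sertoli cells.

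Positions are given in the mouse assembly GRCm38.p6, by the RefSeq gene table. The build used for the array values is not given in the sources used here. Tubb3 (gene number 22152) is at chr8:123411553-123422015, Tubb5 (22154) at chr17:35833920-35838301 and Tubb4a (22153) at chr17:57080061-57087600. Tubb2a (22151), at chr13:34074278-34078008, and Tubb2b (73710), at chr13:34127008-34130354, are neighbours with nearly identical coding sequence. Each had 1 probe set of its own, and 1 more that was shared by both genes and was not used, so their signals may hold each other's RNA. Tubb4b (227613) is at chr2:25222158-25224702.

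Tubb6 was left out of the promoter search, and no window was found for Tubb2b. RefSeq promoter windows of GRCm38.p6 are given for 3 other members on which the results below turn. They are shown 5′ to 3′ for the 250 bases before the annotated start, so that Tubb3, which differed most between the cell types, can be read beside Tubb5 and Tubb2a. Capitals mark the letters of the motifs searched on both strands, which were the CCAAT box, GGGCGG for the GC box, TATAAA for the TATA box, the sequence AGATAA for GATA factors and the E box with letters CACGTG. No 2 matches in these windows overlapped. The windows are chr8:123411303-123411552 on the plus strand, chr17:35838302-35838551 on the minus strand and chr13:34078009-34078258 on the minus strand, in the order printed.
Tubb3: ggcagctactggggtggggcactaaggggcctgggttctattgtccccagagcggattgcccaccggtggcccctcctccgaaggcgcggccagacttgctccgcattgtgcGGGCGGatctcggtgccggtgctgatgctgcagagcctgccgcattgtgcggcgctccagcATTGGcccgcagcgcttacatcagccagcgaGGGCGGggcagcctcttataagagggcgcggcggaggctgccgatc
Tubb5: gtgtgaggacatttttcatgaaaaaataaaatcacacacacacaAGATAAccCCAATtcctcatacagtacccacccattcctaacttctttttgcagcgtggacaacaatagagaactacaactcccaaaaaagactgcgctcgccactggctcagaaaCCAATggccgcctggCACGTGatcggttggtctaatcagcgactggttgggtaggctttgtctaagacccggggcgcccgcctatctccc
Tubb2a: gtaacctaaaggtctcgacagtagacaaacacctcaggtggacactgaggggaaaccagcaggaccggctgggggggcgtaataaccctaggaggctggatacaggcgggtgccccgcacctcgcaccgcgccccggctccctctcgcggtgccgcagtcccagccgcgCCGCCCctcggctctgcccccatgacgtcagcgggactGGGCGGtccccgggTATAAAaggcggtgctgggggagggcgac

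The Tubb3 window held 1 CCAAT on the opposite strand (written ATTGG, bases 77 to 73 before the start) and 2 GC boxes, with a GC content of 68.0%. That of Tubb2a held 2 GC boxes and TATAAA beginning 29 bases before the start, with a GC content of 68.4%. The Tubb5 window had a GC content of 49.2%, below the median of 52.4% over all 32851 windows, and held 2 CCAAT boxes, 1 GATA site and 1 E box. Over all windows the CCAAT box occurred in 33.8%, the GC box in 32.7%, the TATA box in 12.4%, the GATA site in 9.99% and the E box in 6.02%. A match to such short letters describes the window and is not a binding site.

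Values below are log2 intensity, and differences are log2 differences with the standard error of a limma fit over all 77 arrays. A gene was called changed when its Benjamini-Hochberg adjusted p over all 19938 genes was under 0.05 and the difference was at least 2-fold, a log2 difference of 1. Of 35 groups 31 held 2 arrays, and Stra8 total had 3 arrays at 4h and 4 arrays at time 0, at 24h and at 48h. The labels do not say whether replicates were separate animals, so a p-value covers only the spread among the arrays of a group, which may be technical. Arrays give no count of molecules, and their number limits the precision. Averaged over arrays, Tubb5 lay at percentile 99.9 of all genes (13.15) and Tubb4a at percentile 28.1 (7.28). Tubb5 was thus near the top of the array's range and Tubb4a in its lower part, and differences are compressed at both.

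The tagged fractions carried the markers of their labelled cells. The mean log2 intensity of 11 Sertoli cell markers (of 12 listed) was 12.5 to 12.7 in Amh IP, 8.8 to 11.1 in Stra8 IP, 9.7 to 9.9 in Ngn3 IP and 11.5 to 12.0 in total RNA of the 3 lines. That of 12 germ cell markers was 11.3 to 12.0 in Stra8 IP, 12.0 to 12.2 in Ngn3 IP and 8.1 to 9.0 in Amh IP. Some libraries went against their labels. In Amh IP the RA target Rarb was at 7.18 and 7.16 on the arrays labelled 4h, beside 7.07 and 7.02 at time 0, and at 8.58 and 8.56 on those labelled 4d, whereas in Stra8 IP it was at 9.28 and 9.21 at 4h against 7.05 and 7.18 at 4d. The Amh arrays labelled 4h and 4d are therefore named by their label only, and the members' fraction differences and courses that use them are also given without them, other than the values at those labelled times. Stra8 IP at 4d also differed between its replicates, with Sertoli cell markers at 11.08 in replicate 1 and 10.08 in replicate 2. Stra8 total at 4h was uneven as well, with Rarb at 8.52, 6.98 and 6.99 on its 3 arrays. Rarb was at 7.04 to 7.32 in Stra8 total at time 0, and at 8.49 on both Ngn3 total arrays of 4h. The Stra8 total arrays of 4h were kept, and were left out only 1 at a time.

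Tubb3 was the member that separated the cell types. Amh IP held 10.67 to 11.96 (median 11.20, 16 arrays), while Stra8 IP held 7.98 to 9.41 (median 8.31, 16 arrays) and Ngn3 IP 8.29 to 8.57 (median 8.36, 4 arrays). No array of Amh IP overlapped any array of another fraction or line. Total RNA lay between, at 9.31 to 10.13 in Stra8 (median 9.63, 23 arrays), 8.96 to 10.21 in Amh (median 9.65, 14 arrays) and 9.96 to 10.11 in Ngn3 (median 10.05, 4 arrays). The order of the medians was thus Stra8 IP, Ngn3 IP, Stra8 total, Amh total, Ngn3 total and Amh IP. Of the neighbours in this order, Ngn3 IP and Stra8 IP did not differ by the test, with Ngn3 IP minus Stra8 IP at 0.25 (95% interval -0.03 to 0.53) over 0 and 4h. Nor did the totals of Stra8 and Amh, with Stra8 total minus Amh total at 0.06 (-0.08 to 0.21). Over 0 and 4h, Ngn3 total exceeded Stra8 total by 0.51 (limma, adjusted p = 0.00741), under the 2-fold minimum. That average holds the Stra8 total arrays of 4h, which had unlike Rarb levels.

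**Figure D1:**
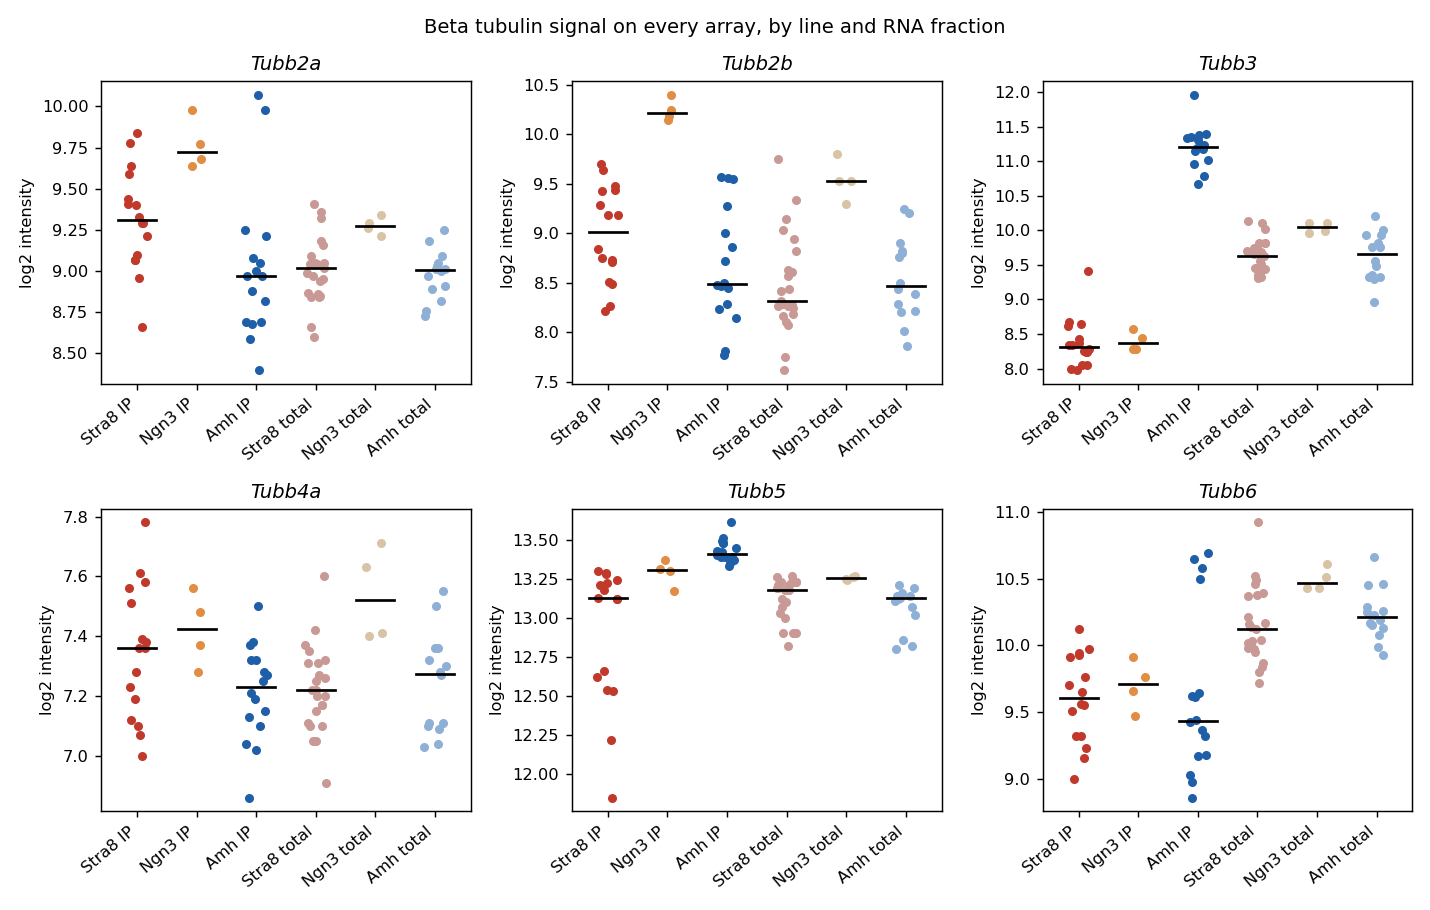
Log2 intensity (vertical axis) of the 6 measured beta tubulin genes on each array, by line and RNA fraction (horizontal axis), with points for arrays and bars for medians. Each panel has its own scale. The 16 Amh IP points of Tubb3 lie above all others of that gene, from 10.67 to 11.96, and 6 Stra8 IP points of Tubb5 lie below the rest.

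Set against total RNA at the same times, Tubb3 was 3.01-fold higher in Amh IP (1.59 ± 0.08, adjusted p = 2.21e-24), 2.47-fold lower in Stra8 IP (-1.31 ± 0.07, adjusted p = 9.93e-24) and 3.13-fold lower in Ngn3 IP (-1.65 ± 0.14, adjusted p = 1.55e-14). Stra8 IP lay 7.13-fold below Amh IP (-2.83 ± 0.07, adjusted p = 3.83e-37). Leaving out the Amh arrays labelled 4h and 4d, these differences were 1.65 against Amh total and -2.90 between the IP fractions. Tubb3 was the 1 member of 6 called in each of these 4 comparisons. Among all genes, 5.04% were called in Amh IP against total (1.1% higher), 9.21% in Stra8 IP against total (5.37% lower), 12.9% in Ngn3 IP against total (6.75% lower) and 16.8% between Stra8 IP and Amh IP (9.26% lower in Stra8 IP).

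Tubb3 is widely used as a neuronal marker, so neural transcripts were set beside it. Of 10 neuron and Schwann cell genes listed, 8 were measured, and limma called 0 of them between IP and total RNA in any line or between Stra8 IP and Amh IP (with 5 to 8 of 8 at an unadjusted p under 0.05). Among all genes the share called was 9.21% in Stra8, 12.9% in Ngn3, 5.04% in Amh and 16.8% between the IP fractions. The mean log2 intensity of the 8 genes was 7.1 to 7.6 in Amh IP, 7.2 to 7.5 in Amh total, 7.6 to 8.1 in Stra8 IP and 7.9 in Ngn3 IP. The median was 7.3 in both Amh IP and Amh total. The median IP minus total difference of the list was 0.47 in Stra8, 0.44 in Ngn3 and -0.03 in Amh. The levels in Amh RNA are low on the array, close to those of Tubb4a. The part of neural RNA in the Tubb3 differences was not tested.

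Stra8 and Amh whole testis were compared in the same way. Between Stra8 total and Amh total, 0 of 6 members were called by limma, beside 0.0301% of all genes, and 0 passed the adjusted p alone (0.0952 to 0.763; 2 had an unadjusted p under 0.05), the 95% intervals lying between -0.29 and 0.21. Without the Amh arrays of doubtful label, Tubb5 was 0.09 higher in Stra8 total (limma, adjusted p = 0.0198), far under 2-fold. No other member passed the adjusted p in that refit. Total RNA holds every cell of the testis, and there fewer cells of a type and less RNA per cell cannot be told apart.

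**Figure D2:**
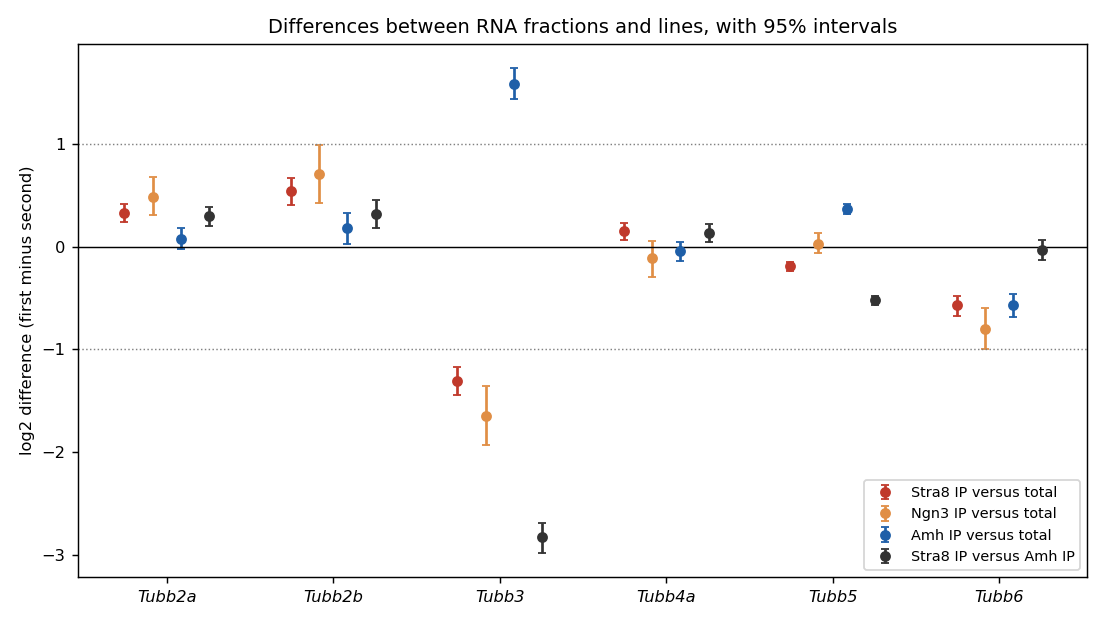
Log2 difference (vertical axis) for each member (horizontal axis) between IP and total RNA in the 3 lines and between Stra8 IP and Amh IP, with points for the estimate and bars for its 95% interval. Dotted lines mark a 2-fold difference. Only the 4 Tubb3 points lie beyond them, at 1.59, -1.31, -1.65 and -2.83.

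Tubb5, the abundant isotype, differed by under 2-fold between fractions when averaged over times. Amh IP held 13.33 to 13.61, Stra8 IP 11.85 to 13.30 and Ngn3 IP 13.17 to 13.37, and total RNA of the 3 lines 12.80 to 13.27. Amh IP exceeded Amh total by 0.37 ± 0.03 (adjusted p = 4.76e-18), with no overlap between the 16 and 14 arrays. Stra8 IP was below Stra8 total by a mean of -0.19 ± 0.02 (adjusted p = 8.7e-11), although their arrays overlapped, and Ngn3 IP minus Ngn3 total was 0.03 (95% interval -0.06 to 0.13). Stra8 IP minus Amh IP was -0.52 ± 0.02 (adjusted p = 7.63e-26). These averages cover unlike times, since the group means of Stra8 IP and Amh IP differed by -0.11 at time 0 and by -1.46 at 8d (12.03 against 13.49), and those of Stra8 IP and Stra8 total by 0.08 and -0.89.

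Tubb6 (gene number 67951, chr18:67390731-67402749) was lower in IP than in total RNA in each line when averaged over times. It was at 8.86 to 10.69 in Amh IP, 9.00 to 10.12 in Stra8 IP and 9.47 to 9.91 in Ngn3 IP, against 9.93 to 10.66 in Amh total, 9.72 to 10.92 in Stra8 total and 10.43 to 10.61 in Ngn3 total. The differences were -0.57 ± 0.05 in Amh (adjusted p = 1.06e-13), -0.57 ± 0.05 in Stra8 (adjusted p = 6.57e-16) and -0.80 ± 0.10 in Ngn3 (adjusted p = 8.31e-10), all below the 2-fold minimum. The Amh line went the other way at 12h, when Amh IP had a mean of 10.67 and Amh total 10.56, and at 6d, with 10.54 and 10.09. Between Stra8 IP and Amh IP it was -0.03 (95% interval -0.13 to 0.07). Markers of other somatic cells were also lower in IP RNA, the 6 peritubular myoid genes having a mean of 8.4 to 9.1 in Amh IP and 9.7 to 10.6 in Amh total. Their part in the Tubb6 difference was not tested.

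The neighbours Tubb2a and Tubb2b were higher in IP than in total RNA of the germ cell lines, and higher in Stra8 IP than in Amh IP, when averaged over times, each by less than 2-fold. Tubb2b was at 10.15 to 10.40 in Ngn3 IP, 8.22 to 9.70 in Stra8 IP and 7.77 to 9.57 in Amh IP, with 9.30 to 9.80 in Ngn3 total, 7.62 to 9.75 in Stra8 total and 7.86 to 9.25 in Amh total. Its IP minus total difference was 0.71 (adjusted p = 1.92e-05) in Ngn3, 0.54 ± 0.07 (adjusted p = 2.83e-10) in Stra8 and 0.18 ± 0.07 (adjusted p = 0.0289) in Amh. The same difference of Tubb2a was 0.49 in Ngn3 (adjusted p = 7.72e-06), 0.33 ± 0.04 in Stra8 (adjusted p = 2.64e-09) and 0.08 in Amh (adjusted p = 0.162). Over the 2 times they share, Ngn3 IP exceeded Stra8 IP by 0.77 for Tubb2b (adjusted p = 7.9e-05) and 0.35 for Tubb2a (adjusted p = 0.00671), and Ngn3 total exceeded Stra8 total by 0.55 for Tubb2b (adjusted p = 0.00356). In that comparison of IP fractions limma called 0 of 6 members, beside 0.191% of all genes, while these 2 had an unadjusted p under 0.05. Between the totals all 6 members were higher in Ngn3 than in Stra8, by 0.17 to 0.55 (median 0.27, beside 0.01 for all genes). By limma 4 had an adjusted p under 0.05, and the share of all genes at that threshold was not counted. Stra8 total at 4h, whose arrays had unlike Rarb levels, enters this comparison. Between Stra8 IP and Amh IP, the difference was 0.32 for Tubb2b (adjusted p = 5.23e-05) and 0.30 for Tubb2a (adjusted p = 1.33e-07), both higher in Stra8 IP. The order was turned at 12h, when Amh IP had a mean of 10.03 and Stra8 IP 9.42 for Tubb2a, and 9.56 and 9.41 for Tubb2b. At the labelled 4d Tubb2b was at 8.93 in Amh IP and 8.62 in Stra8 IP, while at the labelled 4h it was at 8.27 and 9.39.

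Tubb4a, the brain isotype, stayed near the low end of the array at 6.86 to 7.78 on all arrays. Averaged over times, its largest difference between IP and total RNA was 0.15 ± 0.04 in Stra8 (adjusted p = 0.000905). In Ngn3 it was -0.11 (adjusted p = 0.287) and in Amh -0.04 (adjusted p = 0.409). Group means at single times differed by more and in both directions. IP minus total was -0.39 at time 0 and 0.38 at 6d in Amh, and 0.39 at 24h in Stra8. Stra8 IP minus Amh IP was 0.72 at 24h and -0.25 at 6d. With the doubtful Amh arrays left out, the largest move of an IP difference among these 5 members was 0.09, that of Tubb4a between Stra8 IP and Amh IP (0.13, and 0.22 without them).

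Along the courses, which set each labelled time against time 0 and test all times together with an F test, the calls in germ cell and in Sertoli cell RNA had Tubb2b in common. In Stra8 IP 2 of 6 members were called (Tubb5 and Tubb2b, both lower), beside 10.8% of all genes. In Amh IP 2 of 6 were called (Tubb6 higher and Tubb2b lower), beside 7.62%. Stra8 total and Amh total each had 1 of 6, Tubb2b, beside 6.9% and 7.66% of all genes. With the Amh arrays of doubtful label left out, the numbers of members called in the Amh courses did not change. The largest difference from time 0 in Amh IP kept its value in each of the 6 members, and in Amh total only that of Tubb3 moved. Each group has its own mean, so a difference at another labelled time cannot move when these arrays are left out. At 4h limma called 0 of 6 members in Stra8 IP (0.241% of all genes), Ngn3 IP (0.311%), Stra8 total (0.386%) or Ngn3 total (0.301%). The members with an unadjusted p under 0.05 were 2, 0, 2 and 0, in that order. The Stra8 total count rests on the arrays with unlike Rarb levels.

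Tubb5 fell late in germ cell RNA. In Stra8 IP its 2 arrays read 13.30 and 13.28 at time 0, 13.13 and 13.12 at 48h, 12.66 and 12.53 at 4d, 12.62 and 12.54 at 6d, and 11.85 and 12.22 at 8d. The arrays from 4d onwards all lay below every earlier one. In intensity, the mean was 10024 ± 108 (SD, n = 2) at time 0 and 4222 ± 761 (SD, n = 2) at 8d. The difference from time 0 was -0.17 at 48h (adjusted p = 0.11), -0.70 at 4d (adjusted p = 6.49e-11; -0.76 without replicate 1 and -0.63 without replicate 2), -0.71 at 6d (adjusted p = 5.2e-12) and -1.26 ± 0.07 at 8d, a 2.39-fold fall (adjusted p = 1.6e-20), where 3.01% of all genes were called lower.

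In Amh IP Tubb5 stayed at 13.33 to 13.61 at every labelled time, and its largest difference from time 0 was 0.13 at 6d (F test adjusted p = 0.188; 95% interval -0.01 to 0.26). The change in Stra8 IP minus that in Amh IP was -1.35 ± 0.10 at 8d (adjusted p = 1.98e-17). Leaving out the Amh arrays labelled 4h and 4d cannot move this value, which uses the groups of time 0 and 8d alone. In whole testis the largest differences from time 0 were -0.29 ± 0.06 in Stra8 total and -0.36 ± 0.07 in Amh total, both at 8d. In Stra8 IP the Sertoli cell markers were at 9.72 and 10.28 at time 0 and 9.22 and 9.31 at 8d, the germ cell markers at 11.99 and 11.88 and then 11.30 and 11.36, and 11 mitosis genes at 11.56 and 11.52 and then 11.76 and 11.89. The part of these shifts in the Tubb5 change was not tested.

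**Figure D3:**
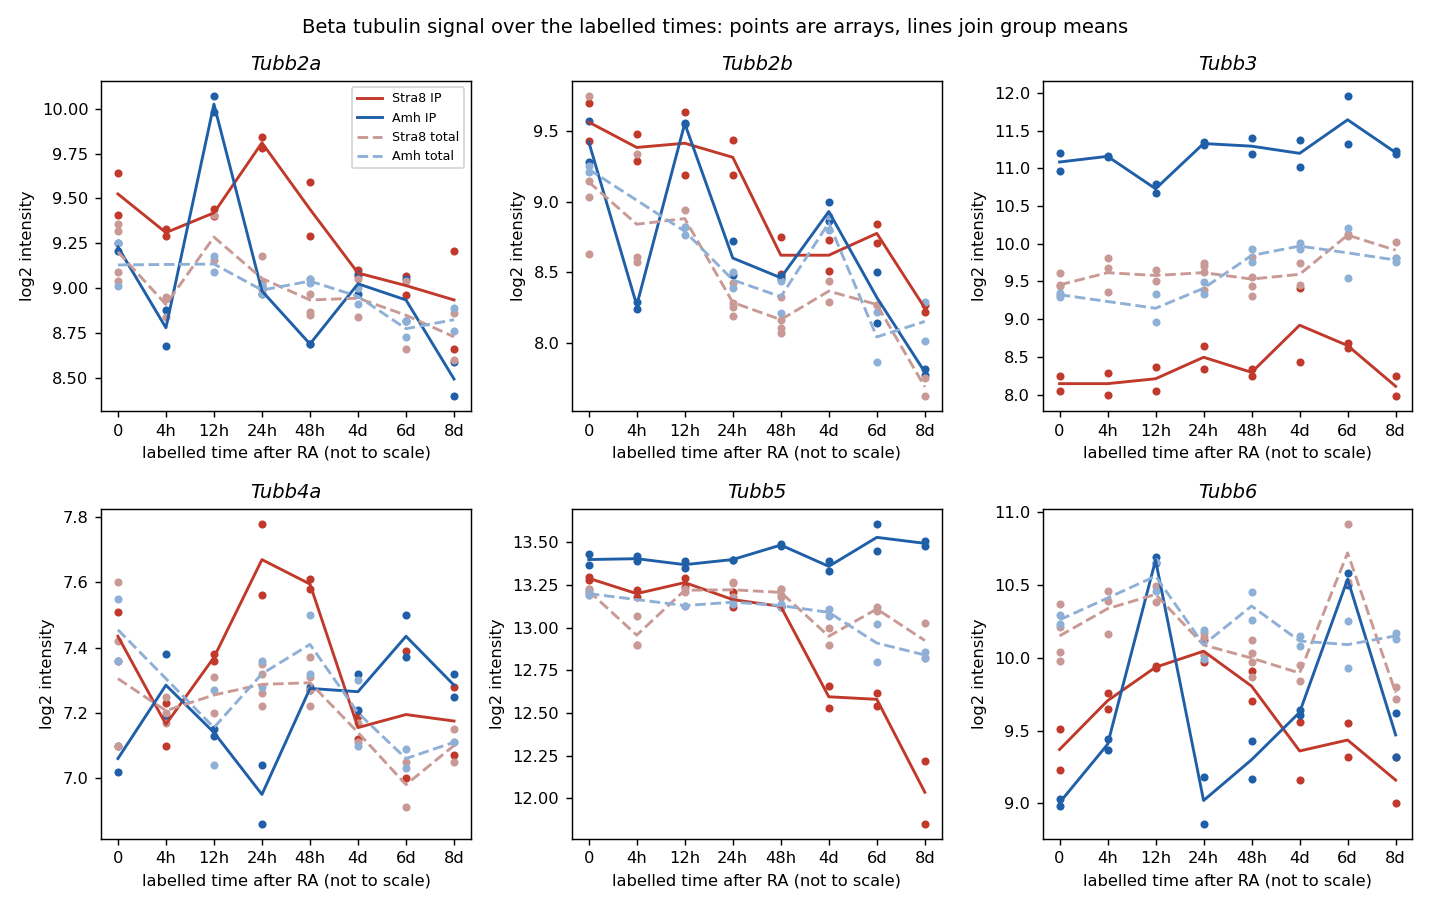
Log2 intensity (vertical axis) of each member at the labelled times after RA (horizontal axis, evenly spaced and not to scale), with points for arrays and lines through group means, solid for IP and dashed for total RNA. No Amh total arrays are plotted at 4h. Tubb5 in Stra8 IP drops to 11.85 and 12.22 at 8d, and Tubb6 in Amh IP has separate peaks at 12h (10.65 and 10.69) and 6d (10.50 and 10.58).

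Tubb6 rose at 2 separate times in Sertoli cell RNA. Amh IP read 9.03 and 8.98 at time 0, 9.37 and 9.44 at the labelled 4h, and 10.65 and 10.69 at 12h. The 24h arrays read 9.18 and 8.86 and the 48h arrays 9.43 and 9.17. It then read 9.64 and 9.61 at the labelled 4d, 10.50 and 10.58 at 6d, and 9.32 and 9.62 at 8d. The 4 arrays of 12h and 6d were the highest of the 16, and none of the others came above 9.64.

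The rise of Tubb6 in Amh IP was 1.66 ± 0.14 at 12h, or 3.17-fold (adjusted p = 8.18e-13), and 1.54 ± 0.14 at 6d (adjusted p = 2.86e-12). At those times 0.868% and 1.26% of all genes were called higher. The other differences from time 0 were under 2-fold, 0.40 at the labelled 4h (adjusted p = 0.0413), 0.02 at 24h (adjusted p = 0.985), 0.29 at 48h (adjusted p = 0.213), 0.62 at the labelled 4d (adjusted p = 0.00198) and 0.47 at 8d (adjusted p = 0.00819). In intensity the means were 514 ± 14 at time 0, 1628 ± 32 at 12h and 1493 ± 56 at 6d (SD, n = 2 each). Peritubular myoid markers in Amh IP were at 8.57 on both arrays at time 0, 8.42 and 8.47 at 12h, and 8.64 and 8.76 at 6d. Their part in the Tubb6 course was not tested.

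In Stra8 IP Tubb6 read 9.51 and 9.23 at time 0 and 9.97 and 10.12 at 24h, its highest time, a difference of 0.68 ± 0.14 (adjusted p = 0.000996) that stayed under 2-fold. At 6d the change in Stra8 IP minus that in Amh IP was -1.47 ± 0.20 (adjusted p = 2.56e-12). This value uses the groups of time 0 and 6d alone, so leaving out the Amh arrays labelled 4h and 4d cannot move it. In whole testis, Stra8 total was at 10.92 and 10.52 at 6d, 0.57 ± 0.12 above time 0 (adjusted p = 0.00019), while Amh total at 6d, 9.93 and 10.25, differed from time 0 by -0.17 (adjusted p = 0.39). The difference between these totals in their change was not tested.

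Tubb5 and Tubb6 were the 2 of 6 members called for a difference in course between Stra8 IP and Amh IP, where 18.7% of all genes were called. For the others the largest differences were -0.90 at 12h for Tubb2a (adjusted p = 6.22e-08), 0.98 at 4h for Tubb2b (adjusted p = 0.000336; 0.57 at its largest without the Amh arrays of doubtful label), -0.62 at 6d for Tubb4a (adjusted p = 2.11e-05) and 0.66 at the labelled 4d for Tubb3 (adjusted p = 0.0863). The Tubb3 value rests on Amh arrays of doubtful label and on the discordant Stra8 IP pair of 4d. Without those Amh arrays its largest difference was 0.42, at 12h (adjusted p = 0.492), and with single arrays left out it ran from 0.42 to 1.14, the highest without replicate 2 of Stra8 IP at 4d (adjusted p = 0.00125). Those of Tubb2a and Tubb4a, at 12h and 6d, do not use the Amh arrays of doubtful label and cannot move without them.

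Tubb2b fell in each line and fraction followed to 8d. Stra8 IP went from 9.70 and 9.43 at time 0 to 8.22 and 8.27 at 8d, a difference of -1.31 ± 0.20 (adjusted p = 3.21e-07). Stra8 total went from 9.03, 9.15, 9.75 and 8.63 to 7.75 and 7.62, a difference of -1.46 ± 0.17 (adjusted p = 1.38e-09). Both Stra8 arms ended below all their arrays of time 0.

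Amh IP went from 9.57 and 9.28 to 7.81 and 7.77, a 3.10-fold fall of Tubb2b (-1.63 ± 0.20, adjusted p = 3.09e-09), and Amh total from 9.25 and 9.21 to 8.29 and 8.01 (-1.08 ± 0.20, adjusted p = 1.87e-05). At 6d the differences were -1.10 in Amh IP (adjusted p = 2.54e-05), where 2.14% of all genes were called lower, and -1.19 in Amh total (adjusted p = 8.89e-06), where 1.8% were. At 8d the share of all genes called lower was 3.01% in Stra8 IP, 1.48% in Stra8 total, 2.69% in Amh IP and 2.34% in Amh total. Some of these calls sit close to the 2-fold line. The Amh IP difference at 6d was -0.92 without replicate 2 of that group and -0.95 without replicate 1 of time 0, and the Amh total difference at 8d was -0.94 without its replicate 2.

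The path of Tubb2b in Amh IP was not even. It read 8.24 and 8.29 at the labelled 4h (-1.15 ± 0.20 against time 0, adjusted p = 2.18e-05, with 1.32% of all genes called lower), 9.56 and 9.55 at 12h (0.14, adjusted p = 0.777), and 8.72 and 8.48 at 24h (-0.82, adjusted p = 0.013). The 12h arrays were as high as those of time 0. The 11 mitosis genes in Amh IP averaged 10.89 and 10.77 at time 0, 8.97 and 8.90 at the labelled 4h, 10.02 and 10.04 at 12h, 9.60 and 9.56 at 24h, with 8d at 9.52 and 9.53, and their part in the Tubb2b course was not tested. Stra8 total at 24h and 48h was also below time 0, by -0.86 (adjusted p = 2.79e-05) and -0.98 (adjusted p = 5.28e-06), short of 2-fold. Without replicate 4 of Stra8 total at time 0, the lowest of that group at 8.63, these became -1.03 and -1.15. Without replicate 3 of that group, the highest at 9.75, they became -0.66 (adjusted p = 0.000819) and -0.78 (adjusted p = 0.000188).

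Tubb2a, next to Tubb2b on the chromosome, was not called in any course. In Amh IP it was highest at 12h, 9.98 and 10.07 against 9.25 and 9.21 at time 0 (0.80 ± 0.13, F test adjusted p = 1.89e-12). In Stra8 IP its largest difference was -0.59 at 8d (F test adjusted p = 6.48e-07), where it read 8.66 and 9.21 against 9.41 and 9.64 at time 0.

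Tubb3 was called at no labelled time in Sertoli cell RNA. Amh IP held 11.21 and 10.96 at time 0, 10.67 and 10.79 at 12h, its lowest time, and 11.33 and 11.96 at 6d, its highest. The largest difference from time 0 was 0.56 at 6d (adjusted p = 0.0341). In Stra8 IP the largest was 0.77 at 4d (adjusted p = 0.00281), where replicate 1, the array with the high Sertoli cell markers, read 9.41 and replicate 2 read 8.43, beside 8.05 and 8.24 at time 0. Without replicate 1 the difference was 0.29 (adjusted p = 0.433), and without replicate 2 it was 1.26 (adjusted p = 1.62e-05). Tubb3 in total RNA was 0.66 above time 0 at 6d in Stra8 (adjusted p = 0.00217) and 0.64 above it at the labelled 4d in Amh (adjusted p = 0.0363), neither reaching 2-fold. Without the Amh arrays of doubtful label, the largest difference of Tubb3 in Amh total was 0.55, at 6d (F test adjusted p = 0.00476). Tubb4a was called at no time, its largest difference being -0.39 in Amh total at 6d (adjusted p = 0.0144).

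**Figure D4:**
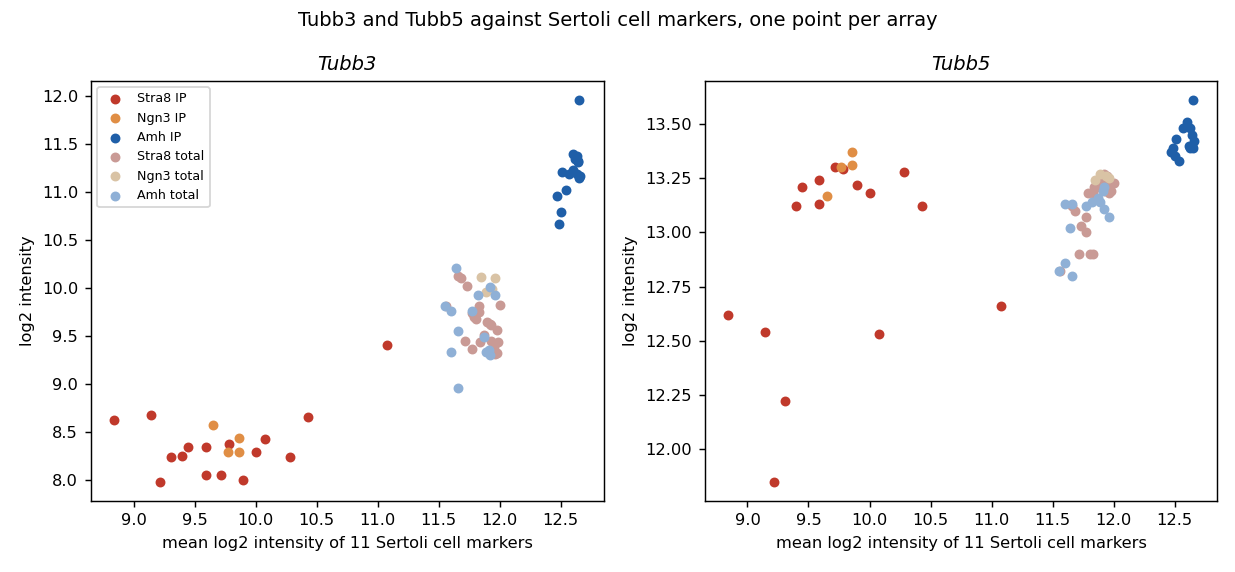
Log2 intensity of Tubb3 (left) and Tubb5 (right) on the vertical axis against the mean log2 intensity of 11 Sertoli cell markers on the horizontal axis, with a point for each array coloured by line and fraction. The Stra8 IP array furthest to the right (markers at 11.08) has the highest Tubb3 of that fraction, 9.41, while the low Tubb5 arrays of Stra8 IP have marker levels from 8.84 to 11.08.

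The genes whose group means followed each member most closely over the 35 groups were taken as a description, since groups share lines, fractions and times. Those nearest Tubb3 were Slc46a1, a folate transporter (r = 0.964), Cbln3 (r = 0.964) and Col18a1, a basement membrane collagen (r = 0.960). Tubb5 was followed by Sdc4, a cell surface proteoglycan (r = 0.923), Tpm3, a tropomyosin (r = 0.908), and Cnn3, a calponin (r = 0.907). Nearest to Tubb2b were Rad9a (r = 0.892), Pard3 (r = 0.866) and Renbp (r = 0.859), and nearest to Tubb2a were Tnks1bp1 (r = 0.872), Tubb2b itself (r = 0.841) and Gal3st3 (r = 0.837). Tubb6 had its closest genes at lower values, with Gas1 (r = 0.774), Zfp423 (r = 0.768) and Nexn (r = 0.728), as did Tubb4a with Shc1 (r = 0.733), Cpa1 (r = 0.715) and Psd2 (r = 0.706). Among the members themselves, Tubb3 and Tubb5 had r = 0.51 and Tubb2a and Tubb3 had r = -0.47.

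The rest of the tubulin family and its partners were followed through 6 lists. Of 13 other tubulins, 11 were measured, and between Stra8 IP and Amh IP 5 were called higher and 1 lower in Stra8 IP (median 0.73, against -0.02 for all genes), beside 16.8% of all genes called. The largest were the testis alpha tubulins Tuba3b (4.03 ± 0.10) and Tuba3a (3.25 ± 0.08), then the epsilon tubulin Tube1 (1.74 ± 0.05), all higher in Stra8 IP, and the alpha tubulin Tuba1a (-2.51 ± 0.06), higher in Amh IP. In Amh IP against total, Tuba3b (-2.77) and Tuba3a (-2.16) were the 2 of 11 called, both lower, beside 5.04% of all genes. In Stra8 IP against total, 2 were higher (Tuba3b at 1.20 and Tuba3a at 1.17) and Tuba1a was lower (-1.88), beside 9.21% of all genes called. These 3 alpha tubulins belong to families of near-identical genes, so their probe sets may mix copies. The values against Amh IP in this and the next paragraphs include the arrays labelled 4h and 4d.

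Other tubulins also changed along the courses. In Stra8 IP the gamma tubulin Tubg2 fell by 1.52 at 8d (adjusted p = 8.5e-13) and Tuba1a rose by 1.12 at 4d (adjusted p = 1.16e-06). That group's replicates differed in Sertoli cell markers, and Tuba1a differed from time 0 by 0.80 without replicate 1 and 1.43 without replicate 2. In Amh IP Tuba4a rose by 1.36 at the labelled 4h (adjusted p = 3.54e-06), by 2.24 at 6d (adjusted p = 8.3e-12) and by 1.38 at 8d (adjusted p = 6.23e-07), and Tuba3b by 1.45 at 6d (adjusted p = 0.000133). The difference in course was called for 4 of 11, beside 18.7% of all genes, with Tuba4a at -2.55 at 6d and Tubg2 at -1.47 at 8d.

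The microtubule-associated and plus-end proteins (27 listed and measured) held 1 gene called higher and 4 lower in Stra8 IP than in Amh IP (median 0.09), beside 16.8% of all genes. The lower ones included Map7 (-2.03 ± 0.07), a kinesin cofactor, Map1b (-1.70 ± 0.04), and Camsap3 (-1.03 ± 0.04), which caps minus ends, and the higher one was Map1a (1.38 ± 0.08). Camsap3 fell by 1.05 in Stra8 IP at 8d (adjusted p = 4.65e-12), and in Amh IP the plus-end binding gene Mapre2 fell by 1.38 at 8d (adjusted p = 2.23e-10). Of 20 tubulin modifying enzymes measured (21 listed), 2 were called higher in Stra8 IP than in Amh IP, beside 16.8% of all genes called in either direction, the polyglutamylase Ttll7 (1.5 ± 0.05) and the deglutamylase Agtpbp1 (1.22 ± 0.07). In the Stra8 IP course 4 of the 20 were called, beside 10.8% of all genes, all higher at 8d, namely Agbl2 (1.79 ± 0.18), Agbl3 (1.54 ± 0.13) and Agbl4 (1.32 ± 0.12), which are carboxypeptidases of tubulin tails, and Sirt2 (1.16 ± 0.09), a deacetylase.

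Of 21 tubulin folding genes, 3 were called in the Stra8 IP course, beside 10.8% of all genes, all higher, with the cofactor Tbca at 1.26 ± 0.13 and Arl2 at 1.02 ± 0.13 at 6d and the prefoldin Pfdn4 at 1.17 ± 0.16 at 4d (1.37 without replicate 1, and 0.97, under 2-fold, without replicate 2). In the Amh IP course limma called 0 of them, beside 7.62% of all genes, with 14 at an unadjusted p under 0.05. The median of that list was 0.24 in Stra8 IP, beside -0.08 for all genes. The gamma-tubulin ring complex seeds microtubules. Of its 8 genes limma called 0 between Stra8 IP and Amh IP (6 at an unadjusted p under 0.05), beside 16.8% of all genes. Tubgcp2 rose by 1.16 in Stra8 IP at 6d (adjusted p = 1.36e-08). Of 6 measured severing genes (7 listed), Fignl1 was 2.11 ± 0.05 higher in Stra8 IP than in Amh IP, and Fign fell by 1.53 at 8d in Stra8 IP and fell by 1.85 at 6d in Amh IP.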

How the data were processed

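RNA of 77 samples was measured on a 1-colour gene-level array. The deposited values are intensity on a linear scale, made with RMA per the submitters' processing notes, with no software, version or settings named in the sources used here. These deposited values were put on a log2 scale and not scaled further. Of 28853 probe sets, 21789 were listed with 1 gene, 1621 with several and 5443 were not listed, which left 19938 genes. Array medians were 252.6 to 300.5 and minima 25.1 to 26.3, so low values are compressed.

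A limma 3.58.1 model (R 4.3.3, data.table version 1.17.8) gave each of 35 groups its own mean, with an intensity trend in the empirical Bayes step and 42 residual degrees of freedom. In all, 41 comparisons were fitted. IP against total RNA and line against line were averaged over the shared labelled times, and tests were two-sided. For a course, the largest difference at a labelled time had to reach 2-fold. The fit was tested on simulated data. Within a group, arrays correlated with r of 0.958 to 0.999 across genes.

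Replicate numbers were checked as pairs by the correlation of residuals. IP and total samples of the Amh line passed 0.1 in 7 of 7 pairs (0.121 to 0.572) and were taken as paired. In the Stra8 line 4 of 8 pairs passed, and in the Ngn3 line 2 of 2 (0.232 and 0.248), too few to be taken as paired. The reported fit has no block, and the numbers enter only the alternative with a replicate block.

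The members, the 6 pathway lists, the 9 marker lists and the tests were chosen with earlier results of these data known. Genes named beyond the members were up to 4 called genes per list and comparison and the 3 most correlated genes per member. Alternatives were no fold minimum, a replicate block, quantile normalization, median centring, a gene's probe sets averaged, a fit on the compared groups only, 30% of genes with low signal dropped, the Amh arrays labelled 4h and 4d dropped, and single arrays left out in turn.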

Additional observations from a re-analysis of the deposited data

Results flagged for a closer look

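A test of the difference in course between the germ cell and Sertoli cell fractions called 2 members at the 2-fold minimum, beside 18.7% of all genes. The adjusted p alone was passed by 5 of 6 members, and the share of all genes passing it was not counted. The change of Tubb5 at 8d in Stra8 IP minus that in Amh IP was -1.35 ± 0.10 (limma, adjusted p = 1.98e-17). The same difference for Tubb6 at 6d was -1.47 ± 0.20 (limma, adjusted p = 2.56e-12). Groups of 4 arrays were also searched for single arrays far from the rest, in 18 combinations of group and member, and 0 were found. Groups of 2 or 3 arrays cannot be searched in this way.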

How the results depend on the processing

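With no fold minimum, more members passed the adjusted p alone: 6 in Stra8 IP against total, 4 in Ngn3 IP and 4 in Amh IP against total, 5 between Stra8 IP and Amh IP, 6 in the Stra8 IP course, 5 each in the Amh IP, Stra8 total and Amh total courses, and 5 in the difference between courses. The share of all genes passing the adjusted p alone was not counted, so these numbers have no background beside them. Between the totals the number of members stayed at 0, although Tubb5 passed the adjusted p when the Amh arrays of doubtful label were left out. Leaving out each array in turn gave 2 to 4 members called in the difference between courses and 2 to 3 in the Stra8 IP course, and moved no other count. The 22 calls of a single member were kept in 476 of 481 refits. The 5 lost were all of Tubb2b, including quantile normalization, which gave -0.99 at the labelled 4h and -0.95 at 6d in Amh IP. These refits include no fold minimum, which cannot lose a call. They also include averaged probe sets, which left the members' values as they were, each having 1 probe set of its own. A fit on the compared groups only, or with low-signal genes dropped, leaves each difference as it was. Only the adjusted p could lose a call there. The same holds for a difference at a single time when the Amh arrays labelled 4h and 4d were dropped. In 0 refits was the sign reversed where either fit called the result, and sign changes among uncalled results were not counted. With the replicate block, the counts of members called were the same, and Tubb3 in Amh IP against total was 1.59. Leaving out an array of a group of 2 leaves a lone array, assumed to vary like the other groups. The small number of arrays limits precision. For Tubb4a its low signal, and for Tubb5 its closeness to the top of the range, limit it also.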
